A study of Mus musculus with 8 samples.

Results

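The response to vitamin D overload was measured in the aorta of mice whose label reads Tet2 knockout, specific to vascular smooth muscle. A gene belonged to the set described here if it had at least 1 CPM (counts scaled to library size) in at least 2 of the 4 libraries with that label, and 14395 of 48587 gene symbols did. The 4 libraries are a vehicle pair (vehicle 1 and vehicle 2) and a treated pair given VitD (VitD 1 and VitD 2). Wild-type (WT) litter controls given vehicle or VitD, in 2 libraries each, entered the statistical fit and are compared only where named. The tissue was the whole aortic tree, so the RNA comes from all layers of the vessel and from whatever tissue was dissected with it. The sources used here do not give the dose, duration, age, Cre driver or number of mice per library. No label ties the libraries of a group to different animals, and p-values therefore rest on a spread between libraries that may be technical.

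Excess vitamin D raises calcium and phosphate in blood, and in rodents it drives deposition of mineral in the muscular layer of the artery. Smooth muscle cells of such vessels can lose their contractile proteins and switch on matrix, inflammatory and bone-associated genes. TET2 oxidises 5-methylcytosine in DNA, a step towards demethylation, and has been linked to maintenance of the contractile state.

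Of the 14395 genes, 13137 had 1 CPM or more in all 4 libraries. Another 165 entered only through the treated pair and 151 only through the vehicle pair, so those had to differ between the groups. Il18rap and Adcy10 lay just outside the limit, each with 0.985 CPM in its second highest library before normalisation, and Gm7357 and Vil1 lay just inside with 1.0005 CPM. Library totals of the 4 ran from 15939909 to 22332149 counts.

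Tet2, the gene named by the knockout label, stood at 42.0 CPM in vehicle 1, 35.2 in vehicle 2, 26.6 in VitD 1 and 37.6 in VitD 2. In the WT vehicle libraries it stood at 35.8 and 32.2 CPM, and in the WT VitD libraries at 18.3 and 20.04 CPM. The knockout label was not matched by a lower Tet2 level than in WT, and counts per gene do not show which exons were read. VitD against vehicle gave -0.26 as log2 fold change (SE 0.209, adjusted p = 0.578, edgeR quasi-likelihood test with Benjamini-Hochberg adjustment, as for every adjusted p below).

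The treated libraries did not resemble each other as closely as the vehicle libraries did. Between VitD 1 and VitD 2, 1855 genes (12.9%) were more than 2-fold apart, against 582 (4.04%) between the vehicle libraries and 609 (4.23%) between the WT VitD libraries. Several transcripts, among them the mitochondrial ribosomal RNAs and the Rrp genes described further on, were far lower in VitD 1 than in any of the 7 other libraries. Principal components of the 4 libraries were taken from the 500 genes most variable over all 8 libraries, WT included. The first component held 67.8% of the variance of these genes in the 4 libraries. On it, vehicle 1 and vehicle 2 lay at -18.6 and -23.7, VitD 2 at 2.87 and VitD 1 at 39.4. The library names carry numbers, and no label says what these stand for. The number of VitD 2 lies next to those of the vehicle pair, and that of VitD 1 lies in another range with the WT VitD libraries. Ribosomal protein genes took 4.28% of counts in VitD 1, 2.26% in VitD 2 and 1.88% and 2.02% in the vehicle pair. They took 4.77% and 4.85% in the WT VitD libraries and 2.10% and 2.30% in the WT vehicle libraries. VitD 1 thus lay near the WT VitD libraries and VitD 2 near the vehicle libraries of both labels, and the cause was not tested. Each treated library is therefore given against the vehicle pair as well as the pair against the pair. These comparisons share the vehicle libraries and are not independent of each other.

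With both treated libraries in 1 group, 32 genes passed an adjusted p of 0.05, 29 higher and 3 lower under VitD (0.198% of 16194 genes tested, 0.179% higher and 0.0185% lower). The higher genes included osteopontin and acute phase, matrix and macrophage genes, and the lower ones were C1qtnf3, Pla2g2d and Wif1. All 32 were set genes, of which Cd300lf, Serpina3m, Bdkrb1 and Hmga2 entered only through the treated pair and Pla2g2d only through the vehicle pair. The median log2 fold change over all genes tested was -0.01. Across the whole set, 3416 genes (23.7%) had both treated libraries above both vehicle libraries and 3244 (22.5%) had both below, so lack of overlap alone was common. Both treated libraries lay more than 2-fold above both vehicle libraries for 274 genes and more than 2-fold below for 77.

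Leaving out a library leaves 1 in its group, so the spread then rests on fewer pairs. Without VitD 1 or VitD 2, the pair comparison becomes that of the remaining treated library with the vehicle pair. The count of 32 changed with the library left out, least without a WT_VitD library. It was 1 without vehicle 1, 0 without vehicle 2, 8 without WT_vehicle 1, 8 without WT_vehicle 2, 22 without VitD 1 and 1898 without VitD 2. All 32 genes kept their direction in each of these edgeR fits, but 0 of the 32 passed the threshold without vehicle 1 and 0 without vehicle 2. In the fit without vehicle 2, 1314 genes had an unadjusted p under 0.05, and the other tools were not run without it. With the spread estimated from the 4 knockout-labelled libraries alone, 2 genes were called, Prg4 and Lcn2. DESeq2, run on every gene with a count, called 461 genes. On the genes that edgeR tested, limma voom called 9.

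**Figure D1:**
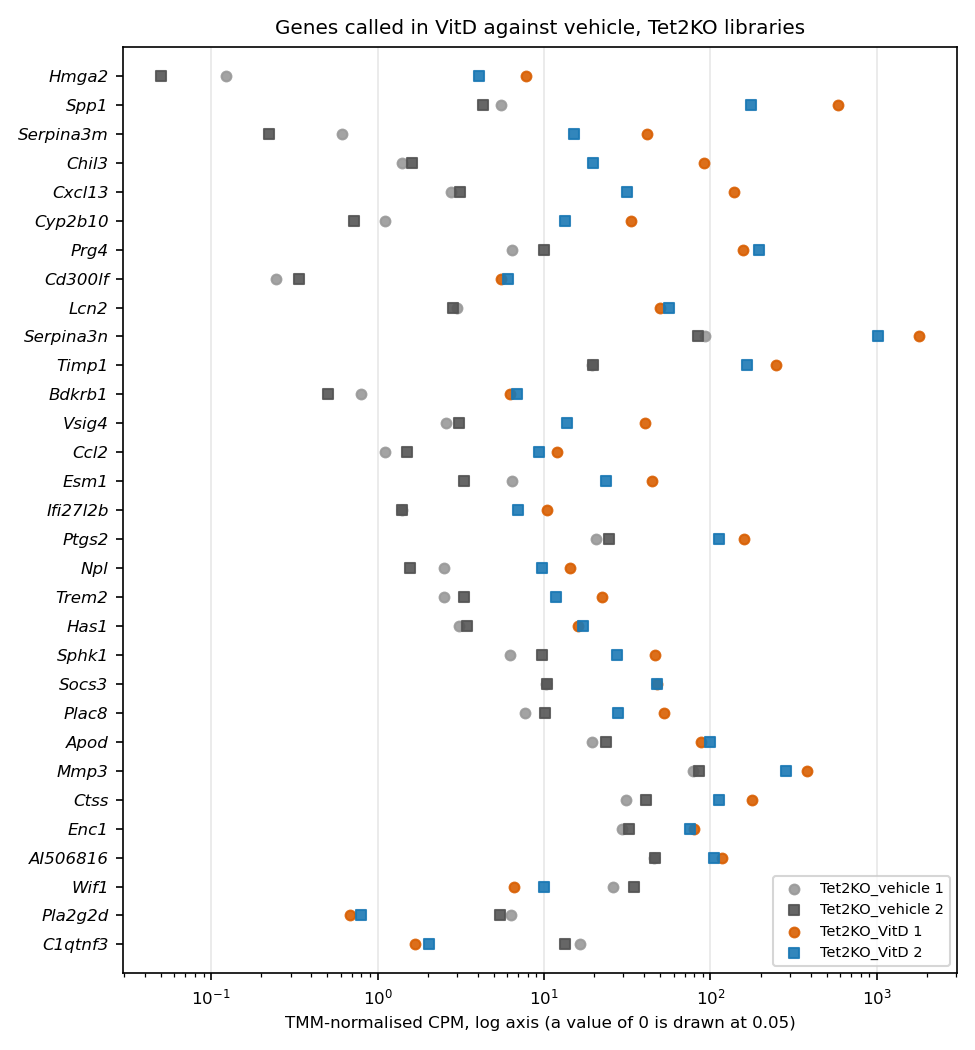
Normalised CPM on a log axis for 31 of the 32 genes called in VitD against vehicle, 1 point per library, with vehicle libraries in grey, VitD 1 in orange and VitD 2 in blue. The rows were selected by the test of the pair, and in each both treated points lie on the same side of both vehicle points. VitD 1 is the higher treated library for 22 of these 31 genes.

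Secreted phosphoprotein 1 (Spp1, osteopontin), a bone matrix protein that binds mineral and is made by modulated smooth muscle cells and macrophages, rose in both treated libraries. Spp1 (chromosome 5, 104435118 to 104441050, plus strand, mm10) stood at 5.52 and 4.30 CPM in the vehicle pair, 581 in VitD 1 and 175 in VitD 2. Both treated values lay far above both vehicle values, and the treated libraries were themselves apart. The log2 fold change was 6.26 for the pair (SE 0.575, adjusted p = 0.00505), 6.89 for VitD 1 (SE 0.246, adjusted p = 2.63e-05) and 5.15 for VitD 2 (SE 0.234, adjusted p = 0.000189). VitD 1 exceeded VitD 2 by a log2 of 1.73 (SE 0.258, adjusted p = 0.0372), a comparison of 2 libraries and not of conditions. In WT, Spp1 stood at 1.24 and 1.59 CPM under vehicle and 611 and 718 CPM under VitD.

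Prg4, which encodes the lubricating proteoglycan lubricin, rose from 6.38 and 9.99 CPM to 156 in VitD 1 and 197 in VitD 2. The log2 was 4.43 (SE 0.364, adjusted p = 0.00405). Has1, a hyaluronan synthase, rose from 3.07 and 3.46 CPM to 15.9 and 17.1 (log2 2.33, SE 0.308, adjusted p = 0.0335). Has1 and Prg4 were the 2 called genes among the 18 tested proteoglycan genes.

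Matrix proteases and their inhibitors included 2 called genes of 28 tested. Timp1, an inhibitor of matrix metalloproteinases, stood at 19.5 and 19.7 CPM in the vehicle pair, 249 in VitD 1 and 166 in VitD 2 (log2 3.40, SE 0.351, adjusted p = 0.0102). Mmp3, the metalloproteinase stromelysin 1, was at 78.5 and 85.5 CPM against 381 and 283 CPM (log2 2.02, SE 0.234, adjusted p = 0.0171). The groups did not overlap for either gene, as for all 32 called genes, which were selected by the test of that difference.

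Acute phase genes and targets of the transcription factor STAT3 had 4 of 19 tested genes called higher and 0 lower. Serpina3n, a secreted serine protease inhibitor, rose from 93.0 and 84.1 CPM to 1792 in VitD 1 and 1015 in VitD 2 (log2 3.99, SE 0.342, adjusted p = 0.00405). Socs3, a feedback inhibitor of cytokine signalling, was nearly equal within each pair, at 10.3 and 10.4 CPM under vehicle and 47.6 and 47.5 CPM under VitD (log2 2.20, SE 0.192, adjusted p = 0.00405). Lcn2, the iron-binding protein lipocalin 2, rose from 3.01 and 2.85 CPM to 49.6 and 56.6 (log2 4.18, SE 0.466, adjusted p = 0.0136). Serpina3m moved from 0.614 and 0.223 CPM to 41.8 and 15.1 (log2 6.08, SE 0.656, adjusted p = 0.0115). The Serpina3 genes are close copies of each other, so the split of reads among them is uncertain.

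Ptgs2, the inducible cyclooxygenase that makes prostaglandin precursors, stood at 20.6 and 24.5 CPM in the vehicle pair, 160 in VitD 1 and 112 in VitD 2 (log2 2.59, SE 0.225, adjusted p = 0.00405). Pla2g2d, a secreted phospholipase, went the other way, from 6.32 and 5.42 CPM to 0.683 and 0.792 (log2 -2.97, SE 0.387, adjusted p = 0.0325). These were the 2 genes called among 21 tested genes of prostaglandins and lipid mediators. Apod, a lipocalin that carries lipids, rose from 19.4 and 23.6 CPM to 88.3 and 99.2 (log2 2.12, SE 0.181, adjusted p = 0.00405), and its treated values differed by less than its change. Sphk1, which makes the signalling lipid sphingosine 1-phosphate, rose from 6.26 and 9.66 CPM to 46.5 and 27.3 (log2 2.21, adjusted p = 0.0417).

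The bases upstream of Apod, Serpina3n, Ptgs2 and Socs3, which shared the smallest adjusted p with Prg4, are printed to show what precedes their transcription starts. Each run is the 250 bases before the start, 5′ to 3′ on the gene's strand, from RefSeq on GRCm38.p6, and capitals mark a match to a searched motif.
Apod, chr16:31314809-31315058, minus strand: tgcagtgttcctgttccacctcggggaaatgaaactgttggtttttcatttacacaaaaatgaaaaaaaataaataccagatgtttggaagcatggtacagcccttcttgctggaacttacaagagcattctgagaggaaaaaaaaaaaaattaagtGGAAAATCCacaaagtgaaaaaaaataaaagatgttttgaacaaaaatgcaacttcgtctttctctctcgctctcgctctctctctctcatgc
Serpina3n, chr12:104406458-104406707, plus strand: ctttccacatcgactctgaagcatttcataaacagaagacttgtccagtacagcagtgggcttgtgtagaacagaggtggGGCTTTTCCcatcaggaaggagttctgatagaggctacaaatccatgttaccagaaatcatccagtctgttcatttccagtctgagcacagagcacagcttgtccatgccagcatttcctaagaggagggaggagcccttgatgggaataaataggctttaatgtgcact
Ptgs2, chr1:150099781-150100030, plus strand: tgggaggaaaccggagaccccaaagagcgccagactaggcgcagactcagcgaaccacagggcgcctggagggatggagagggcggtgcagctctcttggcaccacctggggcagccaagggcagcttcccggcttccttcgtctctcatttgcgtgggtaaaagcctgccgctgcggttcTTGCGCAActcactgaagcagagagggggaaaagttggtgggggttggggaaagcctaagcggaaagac
Socs3, chr11:117969367-117969616, minus strand: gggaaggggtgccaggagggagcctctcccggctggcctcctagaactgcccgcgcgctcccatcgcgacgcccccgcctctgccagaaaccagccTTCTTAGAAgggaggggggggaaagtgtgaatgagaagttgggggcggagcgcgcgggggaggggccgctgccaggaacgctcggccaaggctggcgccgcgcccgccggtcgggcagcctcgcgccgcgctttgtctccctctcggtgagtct

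The motifs, searched on both strands and chosen with these sequences known, were STAT (TTCNNNGAA), an NF-kB core (GGNNTTTCC), C/EBP (TTGCGCAA), AP-1 (TGANTCA), the E-box CACGTG and the TATA box TATAAA. Apod had GGAAAATCC, the NF-kB core on the other strand, beginning 93 bases before the start. Serpina3n had GGCTTTTCC 170 bases before, Ptgs2 had TTGCGCAA 69 bases before and Socs3 had TTCTTAGAA 154 bases before. Among 27025 promoter windows of that length, 7.18% held the STAT motif, 4.84% the NF-kB core, 0.170% the C/EBP motif, 6.87% AP-1, 6.05% the E-box and 12.97% the TATA box. Of the 32 called genes 25 had a promoter entry, and 2 of these held STAT, 3 the NF-kB core, 1 C/EBP, 2 AP-1, 2 the E-box and 8 the TATA box. The TATA box thus stood in 32% of the called genes with an entry and in 6.52% of the 10590 set genes with one. A match describes letters only and says nothing about binding.

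Macrophage genes had 4 of 27 tested genes called higher and 0 lower, with a median log2 of 1.47. Cd300lf, an inhibitory receptor of myeloid cells, rose from 0.245 and 0.335 CPM to 5.53 and 6.11 (log2 4.29, SE 0.450, adjusted p = 0.0102). Trem2, a lipid-sensing receptor of macrophages, rose from 2.52 and 3.29 CPM to 22.3 and 11.8 (log2 2.54, adjusted p = 0.0417). Ctss, the lysosomal protease cathepsin S, rose from 31.2 and 40.8 CPM to 179 and 113 (log2 2.01, adjusted p = 0.0396). Chil3, a chitinase-like protein of activated macrophages, went from 1.41 and 1.62 CPM to 91.2 in VitD 1 and 19.8 in VitD 2 (log2 5.18, SE 0.746, adjusted p = 0.0419). Vsig4, a complement receptor of resident macrophages that was not on the list, rose from 2.58 and 3.07 CPM to 40.5 and 13.7 (log2 3.25, adjusted p = 0.0440). In bulk tissue, more cells of a type and more RNA per cell cannot be told apart.

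Cytokines and chemokines had 2 of 32 tested genes called higher and 0 lower, with a median log2 of 1.53. Ccl2, which draws monocytes, stood at 1.10 and 1.51 CPM in the vehicle pair, 11.9 in VitD 1 and 9.33 in VitD 2 (log2 3.01, SE 0.367, adjusted p = 0.0236). Cxcl13, which draws B cells, stood at 2.76 and 3.13 CPM against 139 and 31.7 (log2 4.85, SE 0.681, adjusted p = 0.0417), so its treated libraries were several-fold apart. Bdkrb1, the inducible bradykinin receptor, rose from 0.798 and 0.503 CPM to 6.21 and 6.86 (log2 3.32, adjusted p = 0.0260).

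Hmga2, a chromatin protein of embryonic tissue, had 2 counts in the vehicle pair together and 217 in the treated pair (125 and 92). That is a ratio of 95.6 per unit of depth, with a counting interval of 26.1 to 794 (adjusted p = 0.0396). Cyp2b10, a drug-metabolising cytochrome, rose from 1.10 and 0.726 CPM to 33.3 and 13.4 (log2 4.66, adjusted p = 0.0244). Esm1, a proteoglycan of activated endothelium, rose by a log2 of 2.81 (adjusted p = 0.0465). Further called rises were Npl (log2 2.56), Ifi27l2b (2.62), Plac8 (2.17), Enc1 (1.32) and AI506816 (1.27), with adjusted p from 0.0396 for Npl to 0.0478 for Enc1.

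C1qtnf3, an adipokine of the C1q and TNF related family, fell from 16.5 and 13.3 CPM in the vehicle pair to 1.68 in VitD 1 and 2.02 in VitD 2 (log2 -3.00, SE 0.314, adjusted p = 0.0102). Wif1, a secreted inhibitor of Wnt ligands, fell from 25.8 and 34.9 CPM to 6.58 and 9.99 (log2 -1.87, SE 0.268, adjusted p = 0.0419). Both treated libraries lay below both vehicle libraries for each of the 3 falls, as they did for 22.5% of set genes. For Pla2g2d this followed from its entry into the set. Wif1 was the only gene called among 22 tested genes of the Wnt pathway, whose median log2 was -0.14 (0.05 without vehicle 1). Enc1 was the last gene inside the threshold. Fmod, the collagen-binding proteoglycan fibromodulin (122, 99.8, 32.2 and 46.4 CPM, adjusted p = 0.0518), and Hsd11b1, which regenerates active glucocorticoid (24.4, 29.7, 76.6 and 58.3 CPM, adjusted p = 0.0518), lay just outside it.

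Against the vehicle pair, VitD 1 alone had 1933 called genes, 1038 higher and 895 lower (11.9% of 16194 genes tested, 6.41% higher and 5.53% lower), of which 1891 belonged to the set. VitD 2 alone had 20, all higher (0.124% of genes tested). For VitD 2 the edgeR test called 0 genes lower, 327 genes were lower at an unadjusted p under 0.05, and DESeq2 called 124 genes higher and 28 lower. The lone library is assumed in these fits to vary like the groups of 2. VitD 1 also lies in another number range than the vehicle pair, so in its comparison treatment and range cannot be told apart. VitD 2 lies in the range of the vehicle pair. Leaving out vehicle 1 left 448 calls for VitD 1 and 5 for VitD 2, and leaving out vehicle 2 left 861 and 1. The median log2 over all genes tested was -0.02 for VitD 1 and -0.01 for VitD 2. A count passing in one library and not in the other does not show that the libraries differ for a gene, and that difference is tested further on.

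The 20 genes called in VitD 2 were Spp1, Prg4, Apod, Serpina3n, Serpina3m, Socs3, Lcn2, Ptgs2, Timp1, Mmp3, Cd300lf, Chil3, Vsig4, Cxcl13, Cyp2b10, Bdkrb1, Il6, Irf7, Lgals3bp and Acan. Il6, the cytokine that signals through STAT3, stood at 0.307 and 0.168 CPM in the vehicle pair, 2.67 in VitD 1 and 8.01 in VitD 2 (log2 for VitD 2 5.05, SE 0.617, adjusted p = 0.0304). Il6 entered the set only through the treated pair, so it had to be higher there. Acan, the cartilage proteoglycan aggrecan, stood at 26.3 and 21.4 CPM, 27.3 in VitD 1 and 64.8 in VitD 2 (log2 1.44, SE 0.188, adjusted p = 0.0415). VitD 1 thus lay near the vehicle level for Acan, with a log2 of 0.19 (SE 0.197, adjusted p = 0.546). Irf7, a regulator of interferon genes, stood at 14.2 and 10.4 CPM, 27.0 and 44.3 (log2 for VitD 2 1.85, adjusted p = 0.0412), and Lgals3bp, a secreted glycoprotein that binds galectin 3, at 96.2 and 93.6 CPM, 125 and 228 (log2 1.26, adjusted p = 0.0415).

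In VitD 1 the largest rises by the naming rule were Spp1, Hmga2, Serpina3m, Chil3, Cxcl13, Cyp2b10, Mt2 and Serpina3k. Mt2, like Hmga2 and Serpina3m, entered the set only through the treated pair and so had to be higher there. Mt2, a metal-binding metallothionein, stood at 0.430 and 0.782 CPM in the vehicle pair, 19.8 in VitD 1 and 3.26 in VitD 2 (log2 for VitD 1 5.003, adjusted p = 0.00225). The largest falls were mt-Rnr2, Hsp90aa1, mt-Rnr1, Fasn, Rrp1, Scd1, Lctl and Otop1. Fasn, fatty acid synthase, stood at 2479 and 3879 CPM in the vehicle pair, 112 in VitD 1 and 3343 in VitD 2 (log2 for VitD 1 -4.82, SE 0.867, adjusted p = 0.0139). Scd1, which desaturates fatty acids, stood at 6826 and 9830 CPM, 354 and 5383 (log2 for VitD 1 -4.56, adjusted p = 0.0137). Otop1, a proton channel expressed in brown fat, stood at 23.9 and 34.6 CPM, 1.43 and 26.2 (log2 for VitD 1 -4.35, adjusted p = 0.00525). VitD 2 lay within or near the vehicle values for these 3 genes.

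**Figure D2:**
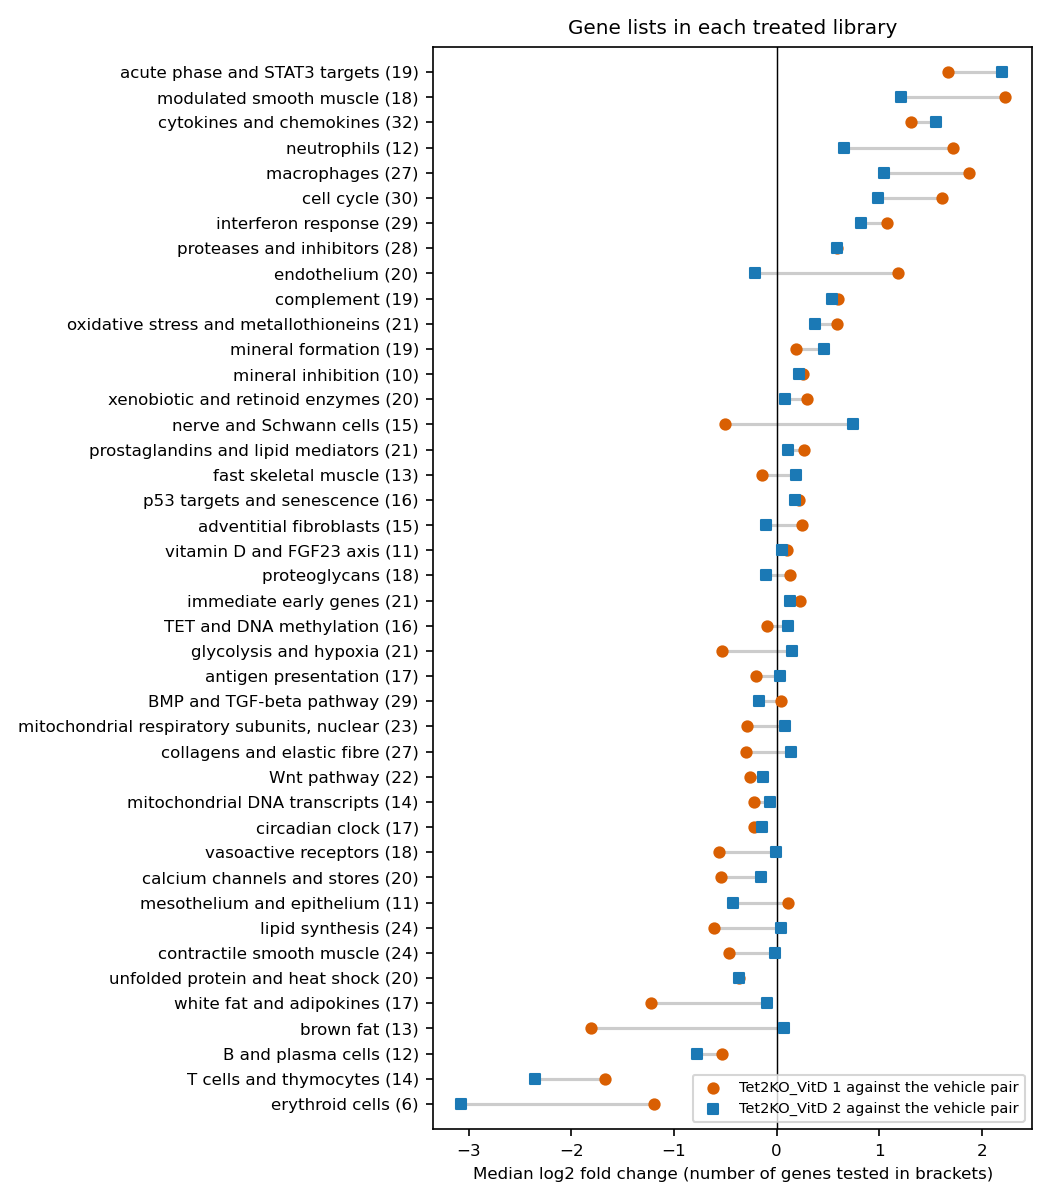
Median log2 fold change of each gene list against the vehicle pair, in orange for VitD 1 and in blue for VitD 2, with the number of genes tested in brackets. Acute phase, modulated smooth muscle, cytokine and macrophage lists lie to the right in both libraries, while the endothelium and fat lists have medians further from 0 in VitD 1 than in VitD 2.

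Genes of mineral formation in bone and cartilage had 19 tested. With both treated libraries together 1 was called higher (Spp1), in VitD 1 alone 4 were called higher (Spp1, Tnfsf11, Dlx5 and Bmp4) and in VitD 2 alone 2 (Spp1 and Acan), with none lower. Runx2, the master transcription factor of bone cells, stood at 3.44 and 3.24 CPM in the vehicle pair, 3.29 in VitD 1 and 4.62 in VitD 2, a log2 of 0.25 (SE 0.414, adjusted p = 0.80). The sign of that value turned when VitD 2 was left out. Alpl, the tissue non-specific alkaline phosphatase that removes a mineral inhibitor, stood at 21.4 and 16.8 CPM against 60.7 and 79.1 CPM (log2 1.87, adjusted p = 0.145). Tnfsf11 (RANKL, which drives osteoclast formation) had 1 count in the vehicle pair together and 42 and 24 in the treated libraries, a ratio of 58.1 with an interval of 10.1 to 2331 that covers counting error only. The edgeR test of the pair did not call Tnfsf11 (adjusted p = 0.179). Tnfsf11 entered the set only through the treated pair, so its treated libraries had to be the higher ones. The list's median log2 was 0.19 in VitD 1 and 0.46 in VitD 2.

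Inhibitors of mineralisation had 10 tested genes, of which 4 were called higher in VitD 1 and none lower. Mgp, matrix Gla protein, which keeps arteries free of mineral, stood at 1240 and 1279 CPM in the vehicle pair, 4646 in VitD 1 and 2283 in VitD 2 (log2 for VitD 1 1.88, adjusted p = 0.00648, and for VitD 2 0.86, adjusted p = 0.509). Gas6, a vitamin K dependent growth factor, stood at 561 and 534 CPM, 1654 and 968 (log2 for VitD 1 1.60, adjusted p = 0.00359, and for VitD 2 0.82, adjusted p = 0.241). Ahsg, the mineral-binding protein fetuin A, stood at 11.3 and 12.95 CPM, 94.8 and 23.8 (log2 for VitD 1 2.97, adjusted p = 0.000993, and for VitD 2 0.97, adjusted p = 0.275). For these 3 genes both treated libraries lay above both vehicle libraries, as they did for 23.7% of set genes, with VitD 1 the higher. The fourth called gene was Nt5e, which makes adenosine, at 16.1 and 18.1 CPM in the vehicle pair. It stood at 41.2 CPM in VitD 1 and 12.9 CPM in VitD 2, so VitD 2 lay below both vehicle libraries.

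Sost, which encodes the Wnt inhibitor sclerostin and was picked out after its values were seen, had 649 and 462 CPM in the vehicle pair, 186 in VitD 1 and 637 in VitD 2. The treated libraries lay on either side of the lower vehicle library, and the log2 was -0.43 (adjusted p = 0.744).

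Genes of the vitamin D and FGF23 axis had 11 tested, with 3 called higher and 1 lower in VitD 1 and none in VitD 2 or in the pair. Vdr, the vitamin D receptor, stood at 1.29 and 0.949 CPM in the vehicle pair, 4.78 in VitD 1 and 4.84 in VitD 2. Its treated values were nearly equal, and the log2 was 2.10 for the pair (SE 0.397, adjusted p = 0.0886) and 2.09 for VitD 1 (adjusted p = 0.0253). Igfbp3, a carrier of insulin-like growth factors, stood at 4.91 and 7.71 CPM, 62.4 and 17.6 (log2 for VitD 1 3.30, adjusted p = 0.00275). Cyp24a1, which degrades active vitamin D, had 1 count in vehicle 1 and 0 in the other 3 libraries, so it was not tested. Fgf23, the phosphate-lowering hormone of bone, missed the CPM limit of the set in VitD 2. It had 0 counts in both vehicle libraries, 20 in VitD 1 and 19 in VitD 2 (adjusted p = 0.102 for the pair).

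The contractile list, which checks the tissue label, was detected in full: all 24 genes were set genes. Their summed level was 55078 and 49896 CPM in the vehicle pair, 35377 in VitD 1 and 51445 in VitD 2. VitD 1 had 6 of 24 called lower (Synpo2, Itga8, Ldb3, Pln, Myh11 and Flna) and none higher, with a median log2 of -0.47, and VitD 2 had none called, with a median of -0.02. Myh11, smooth muscle myosin heavy chain, stood at 7276 and 6097 CPM in the vehicle pair, 2514 in VitD 1 and 6330 in VitD 2. It fell in VitD 1 (log2 -1.41, SE 0.327, adjusted p = 0.0310), while VitD 2 lay between the vehicle libraries. Acta2, smooth muscle actin, stood at 14689 and 14059 CPM, 9334 and 14130 (log2 -0.29 for the pair, adjusted p = 0.676).

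Calcium channels and stores had 6 of 20 tested genes called lower in VitD 1, with a median log2 of -0.54, and none in VitD 2, with a median of -0.15. Cacna1c, the pore of the L-type channel that triggers contraction, stood at 146 and 120 CPM in the vehicle pair, 37.6 in VitD 1 and 96.6 in VitD 2 (log2 for VitD 1 -1.82, adjusted p = 0.00418). Itpr1, the calcium release channel of the endoplasmic reticulum, stood at 324 and 337 CPM, 141 and 230 (log2 for VitD 1 -1.23, adjusted p = 0.0142). Vasoactive receptors had 3 of 18 called lower in VitD 1 (Ptger3, Adrb3 and Adra1a) and none in VitD 2.

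Genes of modulated smooth muscle had 4 of 18 tested genes called higher with both treated libraries together, 12 in VitD 1 and 3 in VitD 2, with none lower. Their median log2 was 2.22 in VitD 1 and 1.21 in VitD 2. The 4 were Timp1, Lcn2, Mmp3 and Hmga2, which other lists hold too. Vcam1, an adhesion molecule for leukocytes, stood at 97.0 and 124 CPM, 520 and 269 (log2 for VitD 1 2.23, adjusted p = 0.00313, and for VitD 2 1.28, adjusted p = 0.144).

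Collagens and elastic fibre genes had 2 of 27 called higher in VitD 1, a share near the 6.41% of all genes tested, 4 lower in VitD 1, and none in VitD 2. Mfap4, a microfibril protein, had like values in both treated libraries, with 808 and 738 CPM under vehicle and 370 and 385 CPM under VitD (log2 -1.03 for the pair, adjusted p = 0.0937, and -1.06 for VitD 1, adjusted p = 0.0190). Col8a1, a short-chain collagen of vessel walls, stood at 25.7 and 26.8 CPM, 152 in VitD 1 and 42.8 in VitD 2 (log2 for VitD 1 2.53, adjusted p = 0.00344). Sfrp2, a secreted Wnt modulator, stood at 150 and 176 CPM, 35.7 and 81.5 (log2 for VitD 1 -2.19, adjusted p = 0.00276). BMP and TGF-beta pathway genes had 5 of 29 called higher and 2 lower in VitD 1, with medians of 0.05 in VitD 1 and -0.17 in VitD 2. Their share called lower was near the 5.53% of all genes tested.

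**Figure D3:**
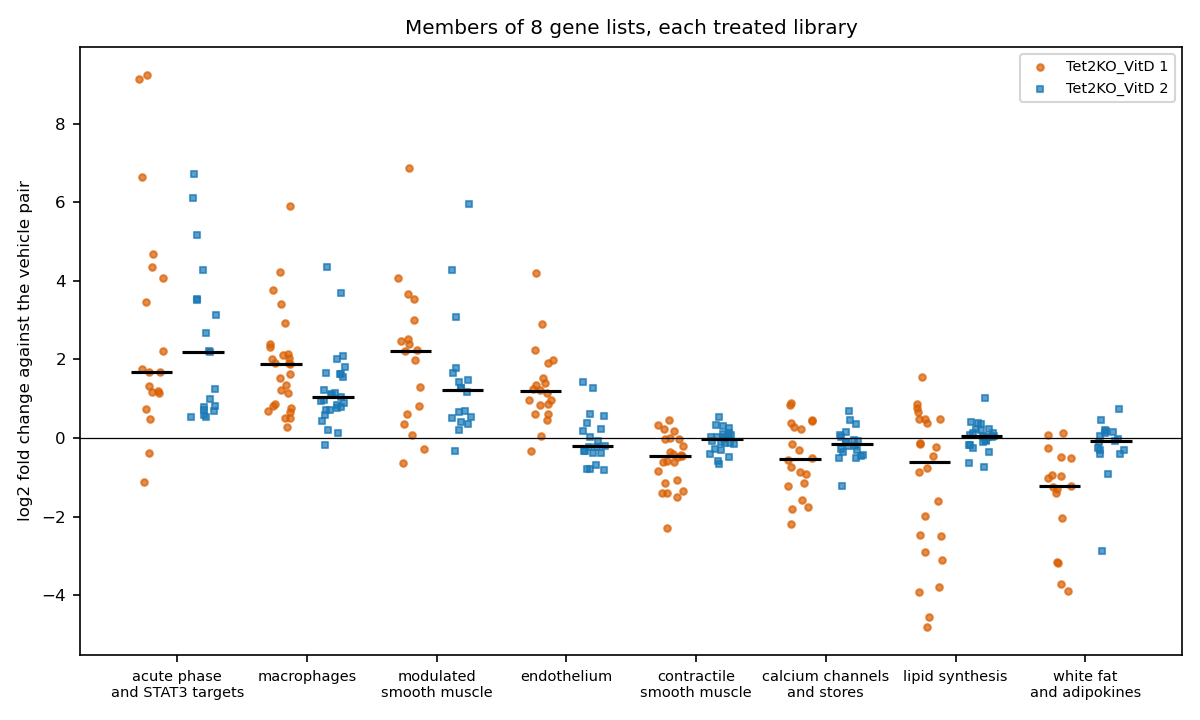
log2 fold change of each tested gene of 8 lists against the vehicle pair, with VitD 1 as orange circles, VitD 2 as blue squares and a black bar at each median. Acute phase, macrophage and modulated smooth muscle genes lie mostly above 0 in both libraries, whereas the endothelium medians were 1.19 in VitD 1 and -0.21 in VitD 2.

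Several inflammatory lists had medians above that of all genes in both treated libraries, and antigen presentation did not. Acute phase and STAT3 target genes had a median log2 of 1.68 in VitD 1 (12 of 19 called higher) and 2.20 in VitD 2 (4 called higher). Cytokines and chemokines had medians of 1.31 (10 of 32 higher, 2 lower) and 1.55 (2 higher). The share of cytokine genes called lower in VitD 1 was near the 5.53% of all genes tested. Macrophage genes had medians of 1.87 (19 of 27 higher) and 1.05 (2 higher), and their summed level was 1015 and 1219 CPM in the vehicle pair, 3586 in VitD 1 and 1957 in VitD 2. Interferon response genes had medians of 1.08 (9 of 29 higher) and 0.82 (1 higher, Irf7). Complement genes had medians of 0.60 (6 of 19 higher) and 0.54 (none called). Antigen presentation genes had medians of -0.20 in VitD 1, with 11 of 17 below 0, and 0.04 in VitD 2 (-0.006 without vehicle 2). In VitD 1 the share of this list called higher was near the 6.41% of all genes tested. The share called lower was above the 5.53% of all genes. In VitD 1 the co-stimulator Cd86 was called higher, the class II genes Cd74 (log2 -0.95, adjusted p = 0.0352) and H2-Ab1 (log2 -0.79, adjusted p = 0.0485) were called lower, and VitD 2 had none called.

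Cell cycle genes had 9 of 30 called higher in VitD 1 and none in VitD 2, with medians of 1.61 and 0.99. Birc5, the mitotic protein survivin, stood at 1.72 and 1.28 CPM in the vehicle pair, 6.52 in VitD 1 and 5.54 in VitD 2 (log2 2.003 for the pair, adjusted p = 0.0898). Ccnb1, the mitotic cyclin B1, stood at 1.47 and 1.01 CPM, 7.95 and 3.92 (log2 2.25 for the pair, adjusted p = 0.119). Both treated libraries were above both vehicle libraries for each, as they were for 23.7% of set genes, at levels of a few CPM.

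Oxidative stress and metallothionein genes had 9 of 21 called higher in VitD 1 and none in VitD 2. Mt1, a metallothionein, stood at 145 and 190 CPM in the vehicle pair, 1865 in VitD 1 and 811 in VitD 2 (log2 2.997 for the pair, adjusted p = 0.0524). Hmox1, the haem-degrading enzyme haem oxygenase 1, stood at 19.8 and 30.2 CPM, 124 and 54.9 (log2 for VitD 1 2.31, adjusted p = 0.00359).

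Endothelial genes stood apart between the treated libraries. VitD 1 had 13 of 20 called higher than the vehicle pair and none lower, VitD 2 had none called, and 7 of 20 were called higher in VitD 1 than in VitD 2. Their summed level was 2502 and 2685 CPM in the vehicle pair, 6563 in VitD 1 and 2265 in VitD 2. Pecam1, the junction protein CD31, stood at 717 and 855 CPM in the vehicle pair, 2076 in VitD 1 and 627 in VitD 2. Sele, E-selectin of activated endothelium, stood at 4.73 and 3.18 CPM, 72.9 and 10.6 (log2 for VitD 1 4.21, adjusted p = 0.00218). Selp, P-selectin, stood at 23.1 and 18.0 CPM, 153 and 31.5 (log2 for VitD 1 2.90, adjusted p = 0.000609). Endothelial Pecam1 was thus below both vehicle libraries in VitD 2 and above both in VitD 1, and whether the libraries held different shares of intima was not tested.

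Fat genes moved in VitD 1 as well. Brown fat genes had 5 of 13 called lower in VitD 1 (median log2 -1.81) and none in VitD 2 (median 0.07), with a summed level of 1028 and 1139 CPM in the vehicle pair, 414 in VitD 1 and 1349 in VitD 2. White fat genes and adipokines had 9 of 17 called lower in VitD 1 (median -1.22) and none in VitD 2 (median -0.09), with sums of 4580 and 5170 CPM, 2597 and 5396. Lipid synthesis genes had 8 of 24 called lower in VitD 1 (median -0.61) and none in VitD 2 (median 0.04). Ucp1, the uncoupling protein of brown fat, stood at 272 and 331 CPM in the vehicle pair, 47.8 in VitD 1 and 525 in VitD 2. Plin1, the coat protein of fat droplets, stood at 288 and 307 CPM, 20.1 and 223. No gene of the endothelial, macrophage or fat lists was without counts in all 4 libraries. The part of perivascular fat in these falls, or in those of Fasn and Scd1, was not tested.

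The other cell type lists had few calls. T cell and thymocyte genes summed to 29.6 and 56.2 CPM in the vehicle pair, 11.6 in VitD 1 and 10.1 in VitD 2, with a median log2 of -1.80 and none of 14 called in any of the 3 comparisons with vehicle. Erythroid genes summed to 932 and 438 CPM, 313 and 83.3, with none of 6 called. Nerve and Schwann cell genes had 2 of 15 called lower in VitD 1, a share above the 5.53% of all genes tested. Their median log2 was -0.50 in VitD 1 and 0.75 in VitD 2, so the treated libraries went opposite ways. None was called among B and plasma cells, mesothelium or fast skeletal muscle. Adventitial fibroblast genes had 1 of 15 called higher in VitD 1, Ly6a, a share near the 6.41% of all genes tested.

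Several further lists had calls in VitD 1 and none in VitD 2. Among p53 targets and senescence genes, 4 of 16 were called higher, with Cdkn1a, the cell cycle inhibitor p21, at 45.2 and 54.9 CPM in the vehicle pair, 143 in VitD 1 and 91.4 in VitD 2 (log2 for VitD 1 1.51, adjusted p = 0.00523). Among immediate early genes 4 of 21 were called higher, with Junb, an AP-1 subunit, at 28.1 and 33.9 CPM, 82.4 and 60.3 (log2 for VitD 1 1.41, adjusted p = 0.00802). Glycolysis and hypoxia genes had 1 of 21 called higher, below the share of all genes, and 4 lower, with Vegfa, the endothelial growth factor, at 128 and 147 CPM, 63.4 and 107 (log2 for VitD 1 -1.11, adjusted p = 0.0212). Neutrophil genes had 4 of 12 called higher, with Il1r2, a decoy receptor for interleukin 1, at 0.430 and 0.447 CPM, 7.27 and 1.67 (log2 for VitD 1 4.03, adjusted p = 0.00456). For Cdkn1a and Junb both treated libraries lay above both vehicle libraries, as they did for 23.7% of set genes. Il1r2 entered the set only through the treated pair, so its treated libraries had to be the higher ones.

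Proteases and lipid mediator enzymes added further calls in VitD 1, with 6 of 28 protease genes higher and 1 lower, and 5 of 21 lipid mediator genes higher and 2 lower. The share of protease genes called lower was below the 5.53% of all genes tested. Adam8, a membrane protease of leukocytes, stood at 4.36 and 3.96 CPM in the vehicle pair, 17.0 in VitD 1 and 12.8 in VitD 2 (log2 for VitD 1 2.03, adjusted p = 0.0102). Timp4, an inhibitor of metalloproteinases, stood at 13.1 and 21.2 CPM, 74.6 and 46.4 (log2 for VitD 1 2.12, adjusted p = 0.00621). Alox5ap, which presents arachidonic acid to the leukotriene pathway, stood at 6.01 and 7.71 CPM, 28.8 and 14.0 (log2 for VitD 1 2.07, adjusted p = 0.00520).

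TET and DNA methylation genes had 1 of 16 called lower in VitD 1, Dnmt3a, a share near the 5.53% of all genes tested, and none in VitD 2 or in the pair. Dnmt3a, which writes new methylation, stood at 113 and 93.1 CPM in the vehicle pair, 56.0 in VitD 1 and 82.6 in VitD 2 (log2 for VitD 1 -0.88, adjusted p = 0.0286). Tet3, another cytosine-oxidising enzyme, stood at 76.7 and 73.7 CPM, 49.9 and 63.3 (log2 -0.41 for the pair, adjusted p = 0.351). Tet1 differed within the vehicle pair, at 21.8 and 7.15 CPM, with 5.09 in VitD 1 and 7.13 in VitD 2 (adjusted p = 0.336 for the pair). The list's median log2 was -0.09 in VitD 1 and 0.11 in VitD 2.

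VitD 1 and VitD 2 were then set against each other, a comparison of 2 libraries and not of conditions. It gave 152 called genes, 61 higher and 91 lower in VitD 1 (0.939% of 16194 genes tested, 0.377% higher and 0.562% lower). That count was 474 without WT_vehicle 1, 464 without WT_vehicle 2, 29 without vehicle 1, 32 without vehicle 2, 77 without WT_VitD 1 and 83 without WT_VitD 2. By the naming rule the largest differences higher in VitD 1 were S100a4, Ocln, Sele, Ctla2a, Cd93 and Dll4. Cd93, a receptor of endothelial and myeloid cells, stood at 102 and 86.5 CPM in the vehicle pair, 497 in VitD 1 and 88.4 in VitD 2 (log2 between the treated libraries 2.49, SE 0.234, adjusted p = 0.00942). Dll4, the Notch ligand of arterial and sprouting endothelium, stood at 6.14 and 4.75 CPM, 26.8 and 5.28 (log2 2.34, adjusted p = 0.0431). VitD 2 lay at the vehicle level for both.

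The largest differences lower in VitD 1 were mt-Rnr2, mt-Rnr1, Hsp90aa1, Rrp1, Rrp12 and Rrp7a. The mitochondrial ribosomal RNAs mt-Rnr1 and mt-Rnr2 together had 185 counts in VitD 1 and from 13481 to 32733 counts in the other 7 libraries. Hsp90aa1, a heat shock chaperone, stood at 387 and 1294 CPM in the vehicle pair, 8.94 in VitD 1 and 378 in VitD 2. Rrp1, a nucleolar factor of ribosomal RNA processing, stood at 107 and 97.5 CPM, 3.66 and 112. All 8 tested genes with an Rrp symbol were lower in VitD 1 than in each of the 7 other libraries, with a median log2 of -3.81 against the vehicle pair in VitD 1 and 0.10 in VitD 2. By contrast, 1 of 16 tested Nop and Utp genes, which also serve ribosome assembly, was below all 7 others, with a median log2 of 0.12 in VitD 1. Rpl12, Exosc5 and Dis3 were lower in VitD 1 in the same way. These genes were gathered after their values were seen, and the cause was not tested.

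**Figure D4:**
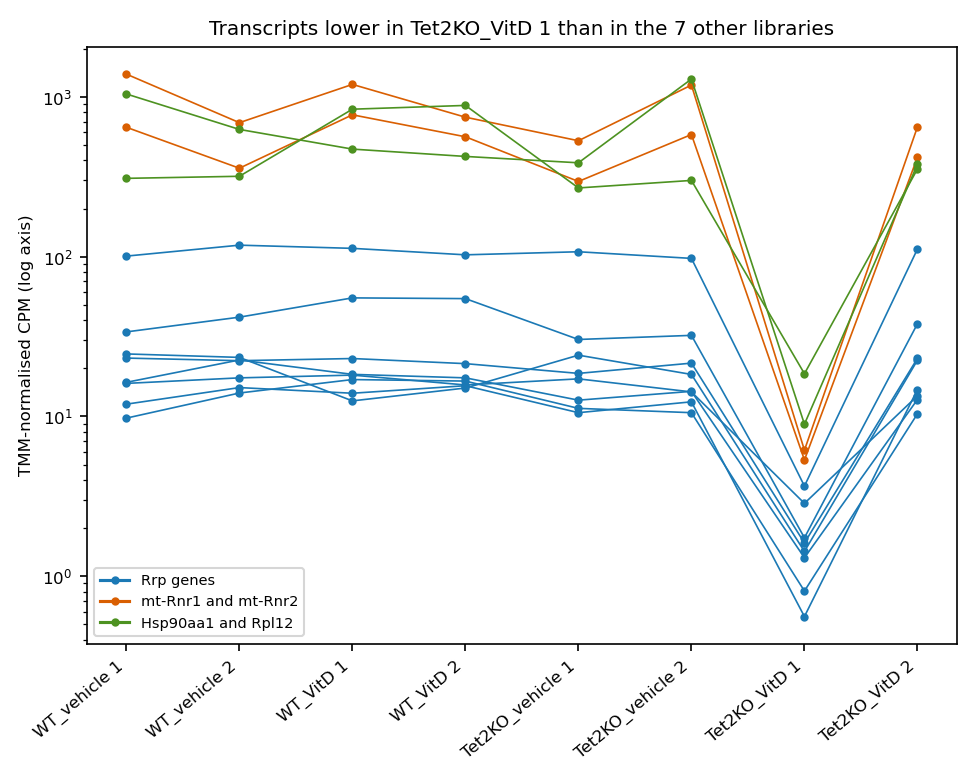
Normalised CPM on a log axis in all 8 libraries for the 8 Rrp genes, the 2 mitochondrial ribosomal RNAs, Hsp90aa1 and Rpl12, 1 line per gene. Every line drops in VitD 1 alone, where Rrp1 was at 3.66 CPM against 97.5 to 118 CPM in the other 7 libraries.

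Fold changes also varied with transcript length in VitD 1. With genes in 4 bins of equal size from the shortest to the longest, the median log2 against the vehicle pair was 0.17, 0.03, -0.06 and -0.14 in VitD 1 and 0.04, 0.02, -0.01 and -0.07 in VitD 2. With that trend removed, an alternative added after seeing the data, 1804 genes were called in VitD 1, and 1614 of the 1933 were among them.

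Whether the response to VitD in the libraries labelled Tet2 knockout differed from that in WT was tested by the interaction of treatment and label. In WT the vehicle libraries all carry numbers in the range of VitD 2, and the VitD libraries all in that of VitD 1. The knockout-labelled treated pair spans both ranges. A difference between the responses therefore cannot be told apart from a difference between the ranges. The edgeR test called 0 of 16194 genes (0%), with 1006 at an unadjusted p under 0.05, while DESeq2 called 18 and limma voom 0. Leaving out VitD 1 gave 37 calls and leaving out VitD 2 gave 13. For Spp1 the interaction was a log2 of -2.60 (SE 0.726, adjusted p = 0.794), for Prg4 -1.61 (SE 0.472, adjusted p = 0.794) and for Socs3 -0.87 (SE 0.265, adjusted p = 0.794). For Apod, which rose to 74.8 and 66.1 CPM in WT under VitD, it was 0.73 (SE 0.247, adjusted p = 0.794). The vehicle levels of these genes differ between the labels too: Prg4 stood at 3.48 and 4.44 CPM in WT vehicle libraries against 6.38 and 9.99 CPM here.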

How the data were processed

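RNA was sequenced from poly-A enriched, stranded libraries of the whole aortic tree, per the labels' protocols. The authors deposited a table of unnormalised counts by gene symbol, made, per the submitters' processing notes, with Trimmomatic 0.39, STAR 2.7.8a and featureCounts 2.0.2 on mm10. The sources used here do not give the annotation release, the strand setting or how multi-mapping reads were handled, so values of near-identical genes are uncertain.

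Counts were fitted with edgeR 4.0.16 (TMM, filterByExpr, quasi-likelihood test, Benjamini-Hochberg adjustment over 16194 genes, threshold 0.05) in R 4.3.3 with all 8 libraries. The pair was tested with 1 mean per group, and each treated library as a group of its own. SE is the log2 fold change divided by the root of its F statistic. CPM is TMM-normalised. The fits were tested on simulated counts.

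Genes named are Tet2, Spp1, Runx2, Acta2, Myh11 and Cyp24a1, all genes called for the pair but 1, which is not reported here, the 8 largest rises and falls of each treated library (6 for 1 treated library against the other) with 5 CPM or more in the higher group, and up to 4 members of each list described with the smallest p. Other list members are named because they were called, after their values were seen. The gene set, the gene lists and the alternatives were chosen with earlier results of these data known. Alternatives were other normalisations, DESeq2 1.42.0, limma 3.58.1 (voom), other filters, fewer libraries, a replicate block, a covariate for the library number range and, added after seeing the data, removal of the trend with transcript length and the block with crossed numbers. Coordinates come from GENCODE M21, where 14007 of the 14395 set genes matched 1 gene, and promoters from RefSeq (GRCm38.p6).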

Additional observations from a re-analysis of the deposited data

How the results depend on the processing

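Each treated library stands alone in its comparison and the vehicle pair is shared by all comparisons with vehicle. Limits set by depth and by the number of libraries were not compared. The other normalisations and the filter of the gene set left all 5 counts of calls within 1.5 times. For VitD against vehicle, 32 calls became 461 with DESeq2, 9 with limma voom, 1225 without a filter, 2 with the knockout-labelled libraries only and 20 with a covariate for the library number range. For VitD 1 against vehicle, 1933 became 3399 without a filter. For VitD 2 against vehicle, 20 became 152 with DESeq2, 6 with voom, 481 without a filter and 98 with the knockout-labelled libraries only. For VitD 1 against VitD 2, 152 became 796, 1447 and 627 with DESeq2, no filter and the knockout-labelled libraries only. The interaction rose from 0 to 18 with DESeq2, 403 without a filter and 7 with the range covariate. With the range covariate the pair comparison becomes VitD 2 against vehicle, because only the knockout-labelled treated pair spans both ranges. Its calls repeat those of VitD 2 and are not a separate result. The DESeq2 fits also used every gene with a count, so tool and filter changed together. The cause of the other shifts was not tested.

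Leaving out 1 library gave 0 to 1898 calls for the pair, 448 to 2727 for VitD 1, 1 to 29 for VitD 2, 29 to 474 between the treated libraries and 0 to 37 for the interaction. Runx2 ranged from -0.019 without VitD 2 to 0.48 without VitD 1 around its log2 of 0.25, and was the only one of the named genes recomputed under all alternatives to change sign.

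Replicate numbers were not taken to pair the libraries: deviations of same-numbered libraries correlated at -0.10 between the vehicle and VitD pairs, and from -0.17 to 0.17 over all pairs of groups. With the replicate block, calls numbered 24 for the pair, 1229 for VitD 1, 15 for VitD 2, 7 between the treated libraries and 0 for the interaction. With the numbers crossed in the VitD pair, added after seeing the data, the block gave 49 for the pair.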
